A study of Mus musculus with 18 samples.

Results

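Barrier lipid genes of the epidermis, Sptlc3, Cers3, Elovl4, Cyp4f39, Pnpla1, Ugcg, Abca12, Alox12b, Aloxe3 and Sdr9c7, were followed across mouse skin flaps with and without a spacer. They were chosen by name for their role in barrier ceramide and lipid synthesis, and all 10 were found among the 27743 genes of the deposited expression table. Levels are FPKM, counted fragments scaled by gene length and by the size of the library, in 18 libraries of flap skin collected at day 7. Of these, 15 libraries came from flaps with a mesh-like printed spacer beneath them, in the groups D15L100, D15L150, D15L200, D100L150 and D150L150, and 3 came from Control flaps that were raised and left untreated. Each group had 3 libraries, numbered 1 to 3. The design text speaks of meshes of different diameters and spacings, but D and L come without a unit or meaning in the labels and are used here as names only. The labels give no strain, genotype, sex or age, and leave unsaid if the 3 libraries of a group are 3 animals, so p-values measure only the spread between these libraries.

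The permeability barrier of skin lies in the cornified layer, where stacked lipid sheets rich in ceramides, cholesterol and free fatty acids fill the space between dead cells. Its most particular lipids are acylceramides, ceramides whose ultra-long fatty acid is hydroxylated at its end and esterified to linoleic acid. They are made in the upper living keratinocytes, packed into lamellar granules as glucosylceramides and secreted, and after oxidation of the linoleate some become bound to the protein envelope of the cornified cell. Loss of function of most of these genes in humans or mice gives ichthyosis or a leaky barrier.

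In the spacer flaps as a whole, 5 of the 10 genes were higher than in Control flaps: Abca12, Sdr9c7, Alox12b, Cers3 and Pnpla1, each by 1.49 to 2.23 on the log2(FPKM + 1) scale. Sptlc3, Cyp4f39, Elovl4 and Aloxe3 had higher means without passing the test, and Ugcg had a difference of -0.06. The test was limma on log2(FPKM + 1) with Benjamini-Hochberg adjustment over 13078 genes, a gene being called at an adjusted p below 0.05. Of all genes tested, 3.56% were called in this comparison, 2.84% higher and 0.726% lower. An unadjusted p below 0.05 was found for 8 of the 10 genes and for 2926 of the 13078. The median difference was 1.60 over the 10 genes and -0.04 over all genes tested. The spacer groups share the Control libraries, so their comparisons with Control are not independent. With voom on recovered fragments as a second method, Abca12, Cers3 and Sdr9c7 were called and Alox12b and Pnpla1 were not (adjusted p = 0.0778 and 0.0658). The calls did not hold without 1 library, Control 1. With it left out, 0 of the 10 genes and 0 genes in all were called by limma, while 5 of the 10 had an unadjusted p below 0.05. No share over all genes is given for that unadjusted count. The fit without Control 1 also has fewer Control libraries, and the effect of this cannot be told apart from that of its values.

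Control 1 stood apart from the other Control libraries. On the first principal component, which held 37.7% of the variance, it lay at -69.9, against 1.32 for Control 2 and -13.9 for Control 3. A spacer library also lay far from its group mates there, D100L150 1 at -49.7, against 11.1 for D100L150 2 and -16.8 for D100L150 3. In Control 1, 7 macrophage and neutrophil markers summed to 7509 FPKM, against 3286 FPKM in Control 2 and 5221 FPKM in Control 3. The highest such sum of the 18 libraries was 11401 FPKM in D100L150 1. Keratinocyte markers were low in Control 1. The summed level of 11 suprabasal keratinocyte markers (Krt1, Krt10, Lor, Flg, Flg2, Ivl, Krtdap, Sbsn, Dsg1a, Dsc1 and Cnfn) was 287 FPKM in Control 1, against 1423 FPKM in Control 2 and 1262 FPKM in Control 3. Control 1 was the lowest of all 18 libraries for 9 of the 10 genes and the highest for Ugcg. Library depth, recovered from the FPKM steps, was 28422344 to 35327357 fragments, and all 10 genes passed the filter of at least 1 FPKM in at least 3 libraries. Fragments behind a value ran up to 44906 for Elovl4, and the lowest were 25 for Sptlc3 and 30 for Pnpla1, both in Control 1.

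The stretch of 250 bases before the RefSeq transcription start is shown for 4 of the 5 genes that were called, as the reference sequence in front of genes that were higher together (GRCm38.p6, 5′ to 3′ on the strand of the gene). Alox12b is left out because its RefSeq start lies 83 bases inside the GENCODE gene. The Sdr9c7 start lies 17 bases inside its gene, so its window takes in those bases. Capitals mark a TATAAA match. The windows lie at chr1:71414911-71415160 on the minus strand for Abca12, and on the plus strand at chr7:66743254-66743503 for Cers3, chr10:127898285-127898534 for Sdr9c7 and chr17:28858161-28858410 for Pnpla1.
Abca12: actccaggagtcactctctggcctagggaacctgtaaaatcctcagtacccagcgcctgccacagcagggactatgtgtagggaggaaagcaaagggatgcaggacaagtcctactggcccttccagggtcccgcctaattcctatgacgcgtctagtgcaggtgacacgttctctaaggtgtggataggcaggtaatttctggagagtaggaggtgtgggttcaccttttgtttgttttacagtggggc
Cers3: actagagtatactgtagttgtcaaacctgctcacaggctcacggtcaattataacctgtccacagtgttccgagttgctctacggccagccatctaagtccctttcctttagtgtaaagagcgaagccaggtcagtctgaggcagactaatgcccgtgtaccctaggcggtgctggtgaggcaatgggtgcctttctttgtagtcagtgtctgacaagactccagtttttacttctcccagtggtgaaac
Sdr9c7: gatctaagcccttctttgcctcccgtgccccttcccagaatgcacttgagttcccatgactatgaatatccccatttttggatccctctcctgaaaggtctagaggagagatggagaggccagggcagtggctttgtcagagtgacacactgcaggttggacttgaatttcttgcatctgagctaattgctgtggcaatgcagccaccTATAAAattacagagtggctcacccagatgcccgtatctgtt
Pnpla1: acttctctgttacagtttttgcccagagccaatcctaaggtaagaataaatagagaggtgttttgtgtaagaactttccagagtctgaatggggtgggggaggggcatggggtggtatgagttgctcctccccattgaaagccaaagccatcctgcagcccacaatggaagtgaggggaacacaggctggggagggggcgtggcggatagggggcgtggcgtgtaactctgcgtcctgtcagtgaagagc
Motifs were searched on both strands in these windows and in those of all 32851 RefSeq promoters. They were the AP-1 letters TGANTCA, the letters TATAAA as a core promoter element, the C/EBP letters TTGCNNAA and the grainyhead-like (GRHL) letters AACNNGTT. A window was at hand for 9 of the 10 genes, that of Ugcg lying wholly inside the GENCODE gene (RefSeq start 293 bases in), and the matches found in them did not overlap. TATAAA was found only for Sdr9c7, at positions -42 to -37 from its RefSeq start, and 12.4% of all promoters hold it. A C/EBP match, TTATGCAA at -157 to -150, was found only for Sptlc3, against 9.56% of all promoters. The AP-1 letters were in 0 of the 9 windows and in 6.75% of all promoters, and the GRHL letters were in 0 of the 9 and in 3.64%. A match is a run of letters and not a bound site.

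Sptlc3 acts at the start of the path, and Cers3 joins the sphingoid base to the acyl chain. Sptlc3 (chr2:139493913-139637674, plus strand, as all gene positions here from the GENCODE annotation of GRCm38) encodes a subunit of serine palmitoyltransferase, which makes the sphingoid base. It had 4.70, 9.09 and 1.14 FPKM in D15L100, 8.17, 8.14 and 21.2 FPKM in D15L150, and 14.9, 8.62 and 4.59 FPKM in D15L200. It had 5.63, 6.67 and 4.58 FPKM in D100L150 and 8.21, 5.19 and 19.1 FPKM in D150L150, against 0.356, 3.35 and 2.66 FPKM in Control. All spacer libraries but D15L100 3 lay above every Control library. The difference was 1.58 ± 0.48 (SE) with an adjusted p of 0.0793 by limma, so it was not called. Without Control 1 it was 1.06 ± 0.53.

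Cers3 (chr7:66743504-66823691, plus strand) encodes the ceramide synthase that takes ultra-long acyl chains. It had 7.36, 10.8 and 3.13 FPKM in D15L100, 7.68, 11.5 and 23.0 FPKM in D15L150, and 15.3, 11.2 and 13.7 FPKM in D15L200. It had 18.3, 10.9 and 10.6 FPKM in D100L150 and 15.6, 9.53 and 13.1 FPKM in D150L150, against 1.56, 2.20 and 2.15 FPKM in Control. All 15 spacer libraries were above all 3 Control libraries, and the Control libraries lay close together. Cers3 was the only one of the 10 genes with that separation, which 0.795% of all tested genes had. It rose by 2.05 ± 0.30 (adjusted p = 0.00674, limma). Without Control 1 the difference was 1.95 ± 0.36, with an adjusted p of 0.127.

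Elovl4 and Cyp4f39 lengthen and hydroxylate the acyl chain that Cers3 uses, and Pnpla1 esterifies the ceramide made from it. Elovl4 (chr9:83778692-83806277, minus strand), the elongase of ultra-long fatty acids, was the most abundant of the 10 genes in every group. It had 246, 234 and 26.5 FPKM in D15L100, 169, 191 and 364 FPKM in D15L150, and 346, 219 and 194 FPKM in D15L200. It had 76.0, 204 and 77.6 FPKM in D100L150 and 173, 111 and 470 FPKM in D150L150, against 5.99, 182 and 133 FPKM in Control. Control 2 and Control 3 thus lay within the spacer range, and 9 of the 15 spacer libraries were above all Control libraries. The difference of 1.62 ± 0.84 was not called (adjusted p = 0.268, limma) and was 0.13 ± 0.70 without Control 1.

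Cyp4f39 (chr17:32452723-32493320, plus strand) is the mouse counterpart of human CYP4F22, the hydroxylase that acts on the end of the ultra-long chain. It had 12.8, 18.8 and 3.23 FPKM in D15L100, 16.3, 18.3 and 29.8 FPKM in D15L150, and 28.3, 19.7 and 28.6 FPKM in D15L200. It had 18.2, 21.3 and 12.4 FPKM in D100L150 and 23.6, 14.6 and 31.3 FPKM in D150L150, against 1.25, 9.98 and 9.75 FPKM in Control. Spacer and Control libraries overlapped through D15L100 3 alone. Its difference of 1.56 ± 0.46 was not called (adjusted p = 0.0752, limma) and was 0.81 ± 0.43 without Control 1.

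Pnpla1 (chr17:28858411-28890309, plus strand) encodes the transacylase that joins linoleic acid to the hydroxylated ceramide. It had 3.44, 4.58 and 1.22 FPKM in D15L100, 3.43, 5.21 and 7.62 FPKM in D15L150, and 7.05, 4.50 and 5.48 FPKM in D15L200. It had 4.71, 4.11 and 2.63 FPKM in D100L150 and 4.99, 2.76 and 6.24 FPKM in D150L150, against 0.194, 1.58 and 1.14 FPKM in Control. The spacer libraries overlapped Control only through D15L100 3. Pnpla1 rose by 1.49 ± 0.29 (adjusted p = 0.0165, limma). Without Control 1 the difference was 1.16 ± 0.32, with an adjusted p of 0.221.

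Ugcg and Abca12 prepare the lipid for secretion. Ugcg (chr4:59189257-59222833, plus strand), the glucosylceramide synthase used by many tissues, was the one gene of the 10 with no spacer library above all Control libraries. It had 33.1, 43.1 and 37.6 FPKM in D15L100, 41.5, 35.7 and 36.4 FPKM in D15L150, and 33.1, 39.8 and 61.1 FPKM in D15L200. It had 50.4, 47.3 and 41.0 FPKM in D100L150 and 54.2, 50.9 and 33.6 FPKM in D150L150, against 64.4, 29.8 and 43.6 FPKM in Control. Both its highest and its lowest library were Control libraries. The difference was -0.06 ± 0.20 (adjusted p = 0.883, limma), and 0.21 ± 0.21 without Control 1.

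Abca12 (chr1:71242276-71414910, minus strand) encodes the transporter that loads lipids into lamellar granules. It had 5.18, 11.4 and 1.63 FPKM in D15L100, 9.56, 12.6 and 20.1 FPKM in D15L150, and 15.3, 11.7 and 11.2 FPKM in D15L200. It had 11.7, 10.7 and 7.88 FPKM in D100L150 and 14.02, 7.00 and 13.5 FPKM in D150L150, against 0.516, 1.72 and 2.04 FPKM in Control. Every spacer library but D15L100 3 was above all Control libraries. Abca12 rose by 2.23 ± 0.36 (adjusted p = 0.0087, limma), the largest difference of the 10. Without Control 1 it was 1.92 ± 0.41, with an adjusted p of 0.135.

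Alox12b, Aloxe3 and Sdr9c7 oxidise the linoleate of secreted acylceramides one after another. Alox12b (chr11:69156989-69169792, plus strand), the 12R-lipoxygenase, had 12.9, 15.7 and 1.68 FPKM in D15L100, 14.9, 18.2 and 34.7 FPKM in D15L150, and 26.9, 21.6 and 28.3 FPKM in D15L200. It had 22.2, 12.4 and 10.7 FPKM in D100L150 and 17.6, 9.59 and 10.1 FPKM in D150L150, against 1.38, 3.35 and 4.07 FPKM in Control. Its 3 D15L200 libraries lay together at the upper end, and D15L100 3 was again within the Control range. Alox12b rose by 2.08 ± 0.44 (adjusted p = 0.0214, limma). Without Control 1 the difference was 1.75 ± 0.51, with an adjusted p of 0.248.

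Aloxe3 (chr11:69125896-69149115, plus strand), the epidermal lipoxygenase that turns the product of Alox12b into an epoxyalcohol, had 4.28, 3.73 and 1.19 FPKM in D15L100, 3.60, 3.91 and 5.47 FPKM in D15L150, and 4.84, 4.71 and 4.33 FPKM in D15L200. It had 2.17, 2.61 and 1.40 FPKM in D100L150 and 3.36, 2.09 and 2.93 FPKM in D150L150, against 0.623, 2.87 and 2.46 FPKM in Control. All D15L150 and D15L200 libraries were above Control, while those of D100L150 lay within its range. The difference of 0.58 ± 0.26 was not called (adjusted p = 0.207, limma) and was 0.19 ± 0.25 without Control 1.

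Sdr9c7 (chr10:127898518-127911761, plus strand) encodes the dehydrogenase that follows both lipoxygenases. It had 15.9, 19.8 and 3.70 FPKM in D15L100, 14.2, 21.2 and 31.4 FPKM in D15L150, and 29.4, 21.3 and 26.2 FPKM in D15L200. It had 30.9, 22.9 and 14.3 FPKM in D100L150 and 28.2, 12.7 and 20.8 FPKM in D150L150, against 1.93, 4.13 and 4.95 FPKM in Control. D15L100 3 was the only spacer library within the Control range. Sdr9c7 rose by 2.16 ± 0.39 (adjusted p = 0.0113, limma). Without Control 1 the difference was 1.86 ± 0.45, with an adjusted p of 0.154.

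**Figure D1:**
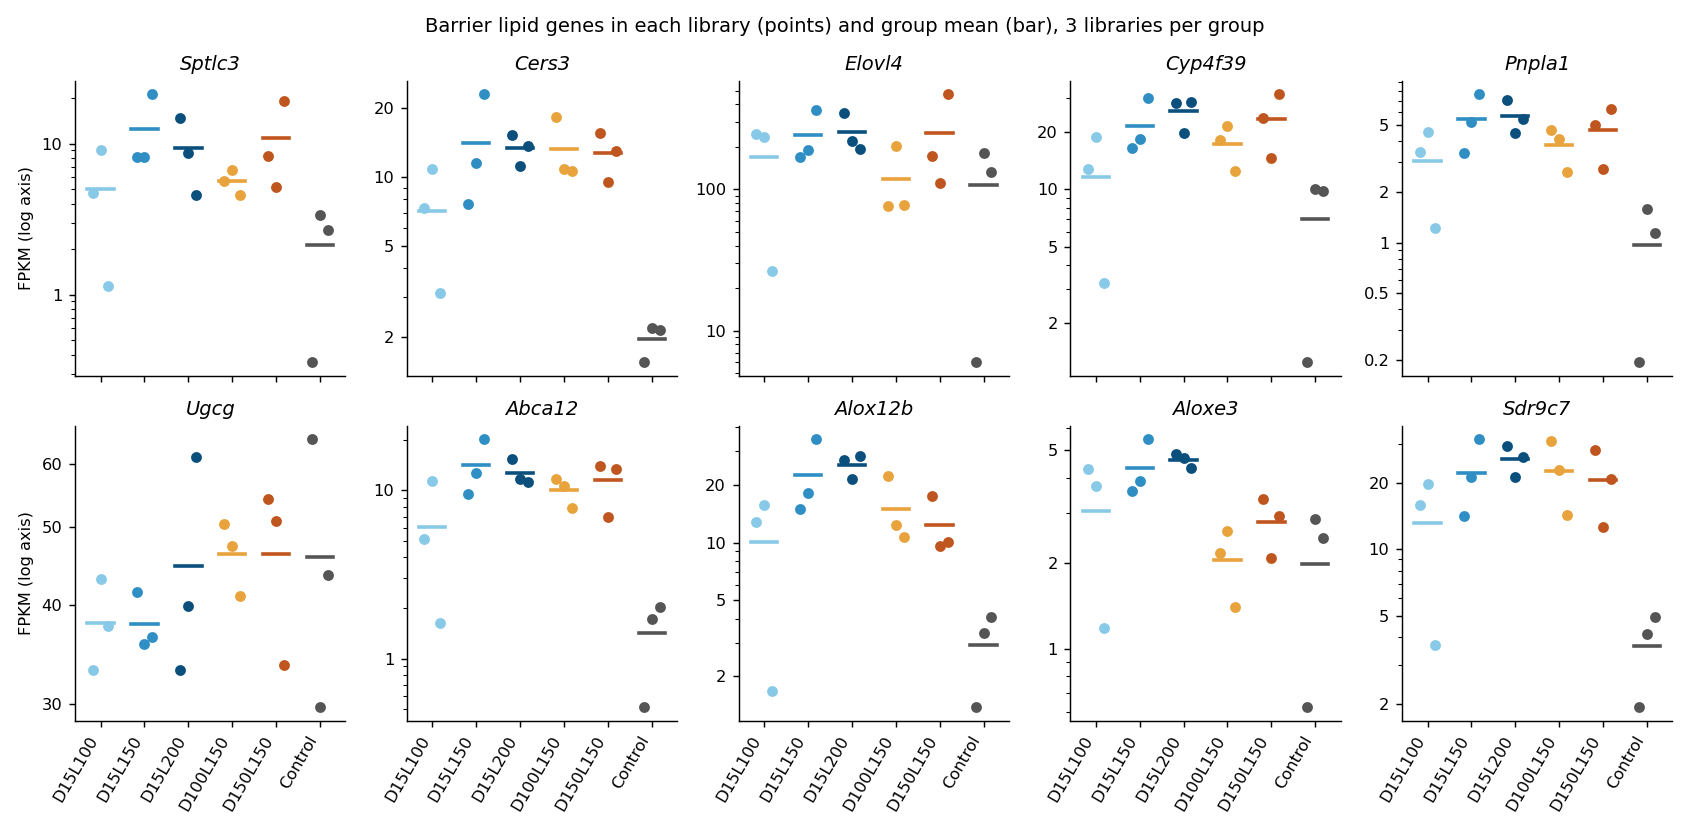
FPKM on a log axis in each library (points) with the group mean (bar) for the 10 genes. All 15 spacer libraries lay above the 3 Control libraries for Cers3, the Control 1 point lay lowest in 9 panels, and Ugcg showed no order by group.

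**Figure D2:**
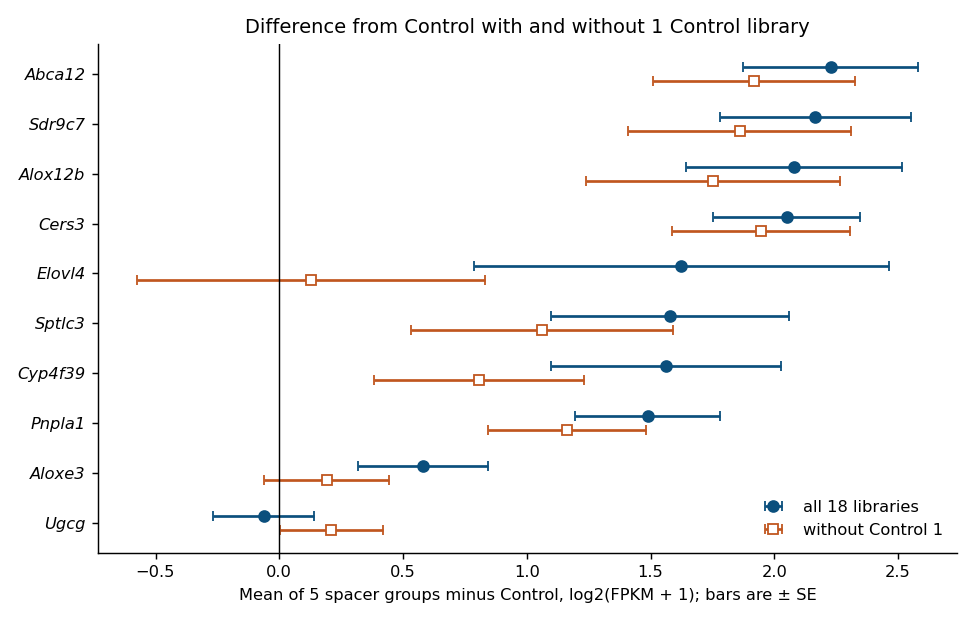
Mean of the 5 spacer groups minus Control on the log2(FPKM + 1) scale, with bars of ± SE, over all 18 libraries (filled) and without Control 1 (open). Cers3 changed little, with 2.05 and 1.95, while Elovl4 was at 1.62 with all libraries and at 0.13 without Control 1.

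Without Control 1 the differences of the 10 genes ran from 1.95 for Cers3 down through 1.16 for Pnpla1, 1.06 for Sptlc3 and 0.81 for Cyp4f39, and then to 0.21 for Ugcg, 0.19 for Aloxe3 and 0.13 for Elovl4. None of them was called (adjusted p from 0.127 to 0.963, limma). Leaving out D15L100 3, the spacer library with the lowest values, had the opposite effect on the calls: 7 of the 10 genes were called, Cyp4f39 (1.69, adjusted p = 0.0283, limma) and Sptlc3 (1.70, adjusted p = 0.0394) being the added ones. Leaving out Control 2 left 4 of the 10 called. The calls over all genes moved the same way, with 597 without D15L100 3 and 279 without Control 2, against 466 with all libraries.

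Next, each spacer group was set against Control. In D15L100, 0 of the 10 genes were called by limma, as were 0.0% of all genes. An unadjusted p below 0.05 was found for 4 of the 10 and for 431 of the 13078 tested. Its largest differences were 1.40 ± 0.50 for Sdr9c7, 1.33 ± 0.46 for Abca12 and 1.33 ± 0.38 for Cers3. In D15L150, 0 of the 10 were called and 0.0% of all genes. There 8 of the 10 had an unadjusted p below 0.05, beside 2585 of the 13078. Abca12, at 2.64 ± 0.46, and Cers3, at 2.22 ± 0.38, had the smallest adjusted p there, 0.0525 by limma.

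D15L200 had 5 of the 10 genes called higher, against 1.43% of all genes. They were the same 5 as over all spacer groups, with differences of 2.82 ± 0.56 for Alox12b, 2.56 ± 0.50 for Sdr9c7, 2.55 ± 0.46 for Abca12, 2.28 ± 0.38 for Cers3 and 1.81 ± 0.38 for Pnpla1 (adjusted p from 0.0313 to 0.035, limma). D100L150 had 3 of the 10 called higher, against 1.06% of all genes: Sdr9c7 (2.34 ± 0.50), Abca12 (2.24 ± 0.46) and Cers3 (2.23 ± 0.38). D150L150 had 4 of the 10 called higher, against 2.03% of all genes higher and 2.42% in either direction: Abca12 (2.37 ± 0.46), Sdr9c7 (2.20 ± 0.50), Cers3 (2.19 ± 0.38) and Pnpla1 (1.54 ± 0.38). None of the 10 was called lower in any spacer group. Abca12, Cers3 and Sdr9c7 were thus called in each of the 3 groups that had calls. These calls moved with single libraries. Leaving out any 1 of the D15L200 libraries, Control 1 or Control 2 left 0 of the 10 called in D15L200, and 0 were called in D100L150 without D100L150 1, Control 1 or Control 2. In D150L150, 0 were called without D150L150 1, D150L150 3 or Control 1 and 2 without Control 2, while in D15L150 2 were called without D15L150 1. With voom, 0 genes of the 10 were called in D15L100, 0 in D15L150, 0 in D15L200, 2 in D100L150 and 2 in D150L150. No share over all genes is given for the counts by voom or with a library left out of these group comparisons.

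By levels alone, the whole group lay above all Control libraries for 1 of the 10 genes in D15L100, where 2.1% of all tested genes did so. The count was 8 of 10 in D15L150, against 12.4% of all genes, and 9 of 10 in D15L200, against 11.2%. It was 7 of 10 in D100L150, against 11%, and 7 of 10 in D150L150, against 14.3%. The spread within spacer groups varied. Cers3 averaged 7.11 ± 3.85 FPKM in D15L100, 14.1 ± 7.98 FPKM in D15L150 and 13.4 ± 2.11 FPKM in D15L200 (SD, n = 3 each). It averaged 13.3 ± 4.35 FPKM in D100L150 and 12.7 ± 3.04 FPKM in D150L150.

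**Figure D3:**
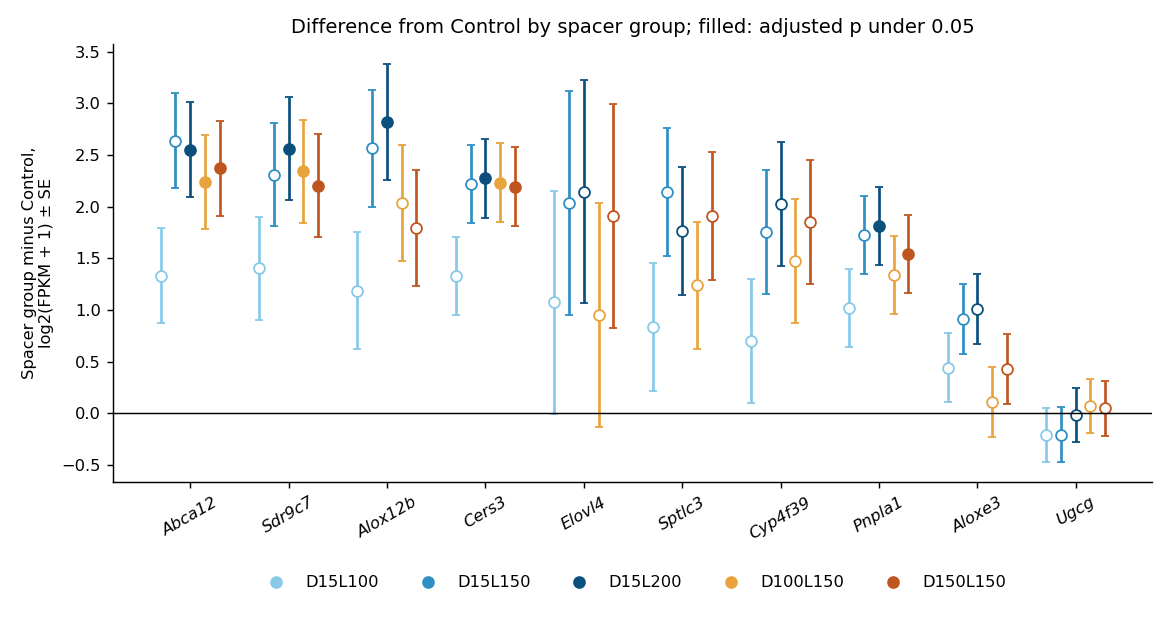
Spacer group minus Control on the log2(FPKM + 1) scale with bars of ± SE for each gene, with filled points where the adjusted p was below 0.05. D15L100 had the lowest value of the 5 spacer groups for Abca12, Sdr9c7, Alox12b, Cers3, Sptlc3, Cyp4f39 and Pnpla1. For Ugcg it was lowest by little, at -0.209 against -0.207 in D15L150. Filled points occur in D15L200, D100L150 and D150L150.

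Pairs of spacer groups were tested next. With D at 15, D15L200 minus D15L100 was 1.63 ± 0.56 for Alox12b, 1.22 ± 0.46 for Abca12 and 1.16 ± 0.50 for Sdr9c7. D15L150 minus D15L100 was 1.38 ± 0.56 for Alox12b and 1.31 ± 0.46 for Abca12. None was called by limma in either comparison (smallest adjusted p = 0.849 and 0.885 among the 10). An unadjusted p below 0.05 was found for 5 and 3 of the 10, beside 678 and 617 of the 13078 tested. The F test over D15L100, D15L150 and D15L200 called 0 of the 10 genes as well. D15L100 3 alone was far below its group mates for most of the genes, and it had the lowest suprabasal marker sum of the spacer libraries, 1366 FPKM.

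With L at 150, Aloxe3 had the smallest unadjusted p of the 10 genes, in D100L150 minus D15L150 (-0.80 ± 0.34). It was not called (adjusted p = 0.429, unadjusted p = 0.0327, limma). In that comparison 1 of the 10 genes had an unadjusted p below 0.05, against 1492 of the 13078 tested. The barrier genes thus showed no excess over the whole table. The mean of Aloxe3 was 2.06 ± 0.61 FPKM in D100L150 and 4.32 ± 1.00 FPKM in D15L150 (SD, n = 3 each). Its libraries did not overlap, but the share of all genes separated in this way was not counted. Cers3 and Sdr9c7 differed by 0.01 ± 0.38 and 0.03 ± 0.50 in the same comparison. In D150L150 minus D15L150, D150L150 minus D100L150 and D15L200 minus D15L150, 0 of the 10 genes were called by limma, 0 had an unadjusted p below 0.05, and 0 were called by voom. All 6 comparisons between spacer groups, and both F tests, called 0.0% of all genes.

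Alox12b and Aloxe3 are neighbours on chromosome 11, on the same strand with 7873 bases between them, and their differences from Control, 2.08 for Alox12b and 0.58 for Aloxe3, were of unequal size. The ratio of their FPKM values was 3.01, 4.20 and 1.41 in D15L100, 4.15, 4.66 and 6.34 in D15L150, and 5.56, 4.58 and 6.54 in D15L200. It was 10.2, 4.74 and 7.63 in D100L150 and 5.24, 4.58 and 3.44 in D150L150, against 2.22, 1.17 and 1.65 in Control. The ratio was above every Control library in 14 of the 15 spacer libraries, the exception being D15L100 3. On the log2 scale the ratio averaged 2.22 ± 0.65 in spacer libraries (SD, n = 15) and 0.70 ± 0.46 in Control (SD, n = 3), a difference of 1.52, or 1.75 without Control 1. The ratio was chosen after the values were seen, so it is a description with no test.

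**Figure D4:**
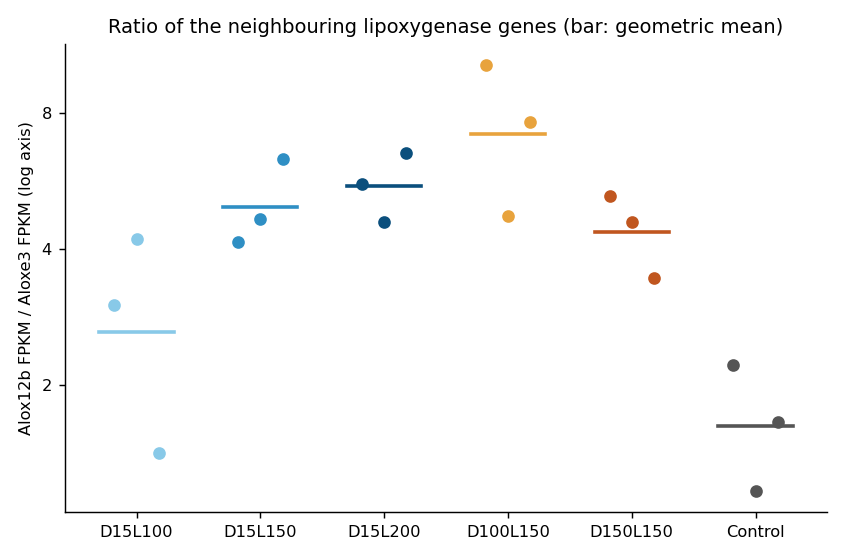
FPKM of Alox12b divided by FPKM of Aloxe3 in each library (points, log axis) with the geometric mean of each group (bar). Control libraries lay between 1.17 and 2.22, and D15L100 3 at 1.41 was the only spacer library among them.

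Markers of the cell layers were read beside these genes. The suprabasal list is named above, and all 11 of its members were in the table. Its summed level was 1366 to 7585 FPKM in spacer libraries, against 287 to 1423 FPKM in Control. In the mean comparison 5 of its 11 genes were called higher. All 11 differences were positive, and all 11 had an unadjusted p below 0.05, beside 2926 of the 13078 tested. Their median difference was 2.25, beside 1.60 over the 10 barrier genes. The keratins of the upper layers, Krt1 (2.96 ± 0.79, adjusted p = 0.0561, limma) and Krt10 (3.04 ± 0.90, adjusted p = 0.0752), were not among the 5. In bulk tissue, more cells of the upper layers and more RNA per cell cannot be told apart. The 8 basal keratinocyte markers summed to 3170 to 7491 FPKM in spacer libraries, against 1292 to 3697 FPKM in Control. Of the 8, 1 was called, Krt14 (1.28 ± 0.25, adjusted p = 0.0158, limma), with 0.81 ± 0.32 for its partner Krt5 (adjusted p = 0.156). All 8 differences were positive, with a median of 0.84 and 6 at an unadjusted p below 0.05.

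With the suprabasal marker level as a covariate, 0 of the 10 genes were called by limma in the mean comparison and 5 had an unadjusted p below 0.05. Cers3 was then at 1.27 ± 0.38 and Abca12 at 0.95 ± 0.32. Sdr9c7 was at 0.82, Alox12b at 0.71 and Pnpla1 at 0.40, while Aloxe3 was at -0.47 and Elovl4 at -1.85. With the basal marker level as a covariate, 0 of the 10 were called as well and 5 had an unadjusted p below 0.05. Few calls were left over the whole table either: 2 of the 13078 genes with the suprabasal level and 0 with the basal level, against 466 without a covariate, so these counts say nothing about the barrier genes in particular.

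Across the 18 libraries, 9 of the 10 genes followed the suprabasal level, with Pearson's r from 0.79 for Cers3 to 0.93 for Pnpla1 and Spearman's rho from 0.72 for Cers3 to 0.91 for Aloxe3. For Ugcg it was -0.36 (Spearman's rho -0.34, adjusted permutation p = 0.151 and 0.185). Among the 9 genes Cers3 had the largest adjusted permutation p, 0.0003 for r and 0.00225 for rho, over the 30 relations computed. The permutations shuffled all libraries across groups, so group differences shared by gene and markers can make these p-values too small. No share over all genes is given for these relations. Without Control 1 and D15L100 3, the libraries farthest from the median suprabasal level, r was 0.64 for Cers3 and 0.84 for Pnpla1. After each group's mean was removed, r was 0.60 for Cers3 and 0.85 for Pnpla1. For Elovl4 r with the suprabasal level was 0.90, and 0.94 after that removal.

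Elovl4 and several of the other genes also tracked the markers of another cell type, the sebaceous gland (Scd1, Scd3, Mc5r, Awat2, Far2, Elovl3, Cidea, Krt79 and Plin2). For Elovl4 r with their level was 0.90 and rho 0.94 (adjusted permutation p = 4.29e-05 for r and 0.0001 for rho, 100000 permutations). Both come from the lowest unadjusted p that this number of permutations allows, with the same shuffling across groups. Without Control 1 and D100L150 1, the libraries farthest from the median, r was 0.98, and after removal of group means it was 0.93. For Aloxe3 r was 0.81 and rho 0.74 (adjusted permutation p = 0.00036 and 0.00156), for Sptlc3 r was 0.75 and rho 0.75 (0.000812 and 0.00156), and for Cyp4f39 r was 0.72 and rho 0.65 (0.00363 and 0.00662). Pnpla1, Abca12, Alox12b and Sdr9c7 had r of 0.46 to 0.62, and Ugcg had -0.53. The lowest positive value was that of Cers3, with r of 0.36 and rho of 0.33 (adjusted permutation p = 0.151 and 0.19). The summed sebaceous markers were 189 to 2321 FPKM in spacer libraries, against 164 to 855 FPKM in Control, and 0 of the 9 were called by limma (0 at an unadjusted p below 0.05). Their part in the values of these genes was not tested.

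**Figure D5:**
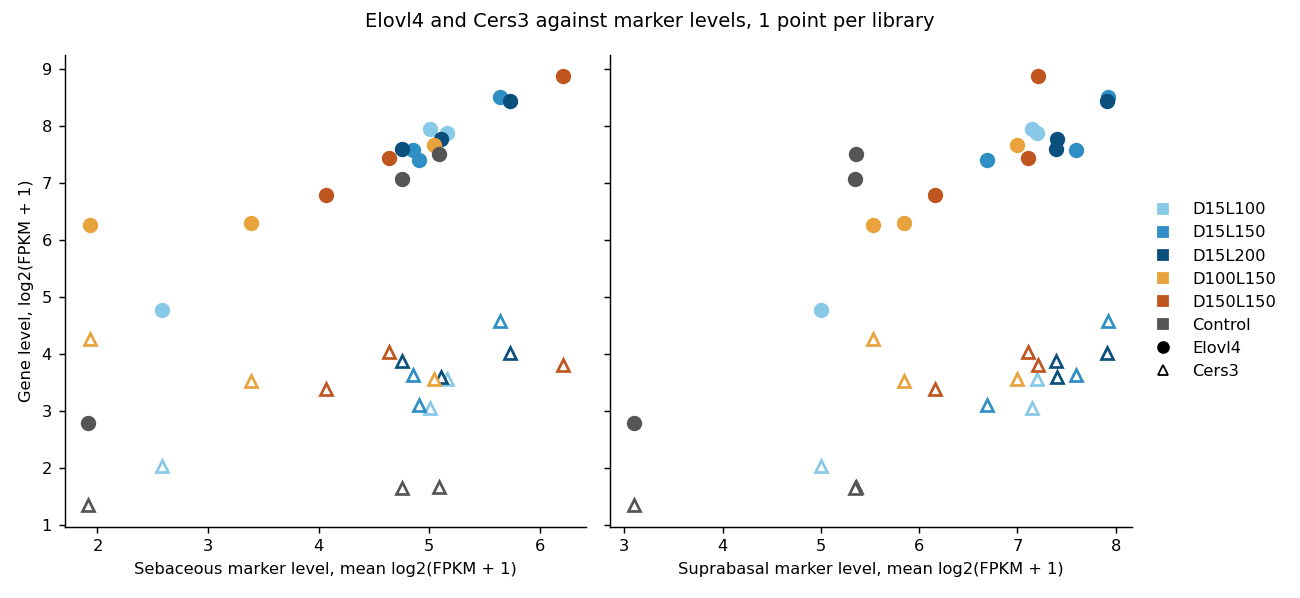
Level of Elovl4 (filled circles) and Cers3 (open triangles) as log2(FPKM + 1) against the mean log2(FPKM + 1) of the sebaceous markers (left) and of the suprabasal markers (right), 1 point per library and gene, coloured by group. Elovl4 followed the sebaceous level and the suprabasal level alike (r = 0.90 with each). At similar sebaceous levels Cers3 was lower in Control 2 and Control 3 than in the spacer libraries.

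Other cells of the flap were read the same way. The 10 skeletal muscle markers summed to 2048 to 18233 FPKM in spacer libraries, against 7995 to 17220 FPKM in Control. All 10 had negative differences, with a median of -0.86, and 0 were called by limma (1 at an unadjusted p below 0.05). Acta1, skeletal actin, was at -0.84 ± 0.48 and Ckm, muscle creatine kinase, at -0.96 ± 0.83. Against Control, the median of the muscle list was 0.18 in D15L100, -0.15 in D15L150, -0.94 in D15L200, -1.45 in D100L150 and -1.91 in D150L150. Libraries of a group could lie far apart, with sums of 2388, 2746 and 13410 FPKM in D100L150 and 13809, 15389 and 3499 FPKM in D15L150. Those of D150L150 lay closer, at 2048 to 4052 FPKM. No muscle gene was called between spacer groups. None of the muscle genes was called against Control in any group by limma. In D150L150, 7 of 10 had an unadjusted p below 0.05, beside 2662 of the 13078 tested. In D100L150 it was 2 of 10, beside 2756 of the 13078, which is near the share over all genes. With the muscle level as a covariate 0 of the 10 barrier genes were called in D100L150, 0 in D150L150, 1 in D15L200 and 5 in D15L150. The counts without it were 3, 4, 5 and 0, and no share over all genes is given for these groups with it. In the mean comparison the same covariate left 3 of the 10 called, and 135 genes over the whole table. Of 6 fibroblast markers 0 were called, with 0 at an unadjusted p below 0.05, and of 7 macrophage and neutrophil markers 0 were called, with 1 at an unadjusted p below 0.05. Of 9 hair markers 2 passed the filter and 0 were called, with 1 at an unadjusted p below 0.05.

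The genes around the 10 in the same pathways were counted from lists, all in the mean of the 5 spacer groups against Control. Of 10 tested genes of sphingoid base and ceramide synthesis, 2 rose and 0 fell. Degs2, the desaturase and hydroxylase that makes phytoceramides, rose by 2.06 ± 0.35 (adjusted p = 0.0107, limma), and Degs1, the dihydroceramide desaturase, by 0.48 ± 0.12 (adjusted p = 0.0455). Degs2 averaged 4.87 FPKM in D15L100 and 14.3 FPKM in D15L200, against 1.43 FPKM in Control, whereas Degs1 averaged 75.3, 104 and 70.5 FPKM. Sptlc1, the common partner of Sptlc3, missed the threshold at 0.55 ± 0.14 (adjusted p = 0.0501) and is named after its value was seen.

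Of 12 genes of chain elongation, activation and hydroxylation, 2 rose and 0 fell. Elovl7 rose by 2.08 ± 0.46 (adjusted p = 0.0267, limma) and Elovl1, the elongase for saturated very long chains, by 0.80 ± 0.18 (adjusted p = 0.0264). Of the 6 partners of acylceramide and envelope formation, 5 rose and 0 fell. Tgm1, the transglutaminase of the cornified envelope, rose by 1.70 ± 0.30 (adjusted p = 0.0113, limma), Nipal4, an ichthyosis gene, by 1.66 ± 0.28 and Sult2b1, the cholesterol sulfotransferase, by 1.55 ± 0.25. Lipn rose by 1.17 ± 0.29 and Abhd5, the partner protein of Pnpla1, by 0.62 ± 0.15. The one not called was Dgat2, at 0.92 ± 0.35 (adjusted p = 0.143).

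Of 11 genes that handle glucosylceramide and sphingomyelin, 2 rose and 0 fell. They were Gltp, the glycolipid transfer protein (1.37 ± 0.25, adjusted p = 0.0118, limma), and Smpd1, acid sphingomyelinase (0.82 ± 0.20, adjusted p = 0.0419). Of 14 genes of cholesterol synthesis and uptake, 1 rose, Sqle (1.20 ± 0.24, adjusted p = 0.0175, limma), and all 14 differences were positive. Of 5 other lipoxygenase genes 3 passed the filter and 0 were called by limma, with 2 at an unadjusted p below 0.05. Alox12, the 12S-lipoxygenase, was at 0.67 ± 0.19 (adjusted p = 0.0612) and Alox5, the first enzyme of leukotriene synthesis, at 0.60 ± 0.22 (adjusted p = 0.14). The median differences of these lists were 0.31, 0.47, 1.36, 0.24, 0.47 and 0.67 in the order given, beside -0.04 over all genes. Without Control 1, no gene of these lists was called, as for the whole table.

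Genes with the profile most like the mean of the 10 across the 18 libraries were Rnf225 (r = 0.985), Cdsn (r = 0.984), Bpifc (r = 0.983), Wfdc5 and Dmkn (r = 0.982 each), given as a description. Cdsn, corneodesmosin, ranged from 11.4 to 351 FPKM. After removal of group means their r was 0.96 to 0.97.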

How the data were processed

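RNA of mouse skin flaps was measured in 18 libraries, in 6 groups of 3 by the sample titles. The authors' deposited table gives FPKM per gene. Per the submitters' processing notes, the build was mm10 and the tools were fastp, HISAT2, HTSeq, DESeq2 and R 3.2.0. The annotation is not given in the sources used here, nor is the strand setting, so reads of overlapping antisense genes cannot be told apart. FPKM divides by each library's own total, so abundant transcripts can shift all other values.

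Differences were tested with limma 3.58.1 (R 4.3.3, trend and robust variance) on log2(FPKM + 1), which understates changes of low genes, over all 6 groups, after a filter of at least 1 FPKM in at least 3 libraries. This left 13078 genes and removed 14665. Benjamini-Hochberg adjustment ran over all of them. FPKM values were whole multiples of 1 fragment within a relative tolerance of 1e-07, which gave fragments per gene and a depth of 28422344 to 35327357. These fragments served limma-voom as an alternative. Chi-square values per gene of 44.6 to 259 between group mates show that none was a repeat of another. Precision is limited by 3 libraries per group. The scripts were tested on simulated data.

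Other settings tried were pseudocount, filter, quantile scaling, TPM, replicate block, marker levels as covariates, only the groups compared, and each library left out. Promoters are from RefSeq (GRCm38.p6), gene positions from GENCODE. The genes and lists were chosen with earlier results of these data known. Named from the lists are genes past the threshold, at most 5 by smallest p, or the 2 with the smallest p, the first 2 markers of the lists shown, and the 5 most similar profiles.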

Additional observations from a re-analysis of the deposited data

How the results depend on the processing

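In the mean comparison, where 5 of the 10 barrier genes were called, 3 were called by voom and 3 with the muscle level as covariate, and 0 with the suprabasal and 0 with the basal level. In D15L200 (5 called) the count was 0 without the filter on low values, by voom, with the replicate block and with the suprabasal or basal level, and 1 with the muscle level. In D100L150 (3 called) it was 1 without the filter, with the block and with the suprabasal level, and 0 with the basal or muscle level and with only the groups compared. In D150L150 (4 called) it was 1 without the filter and with only the groups compared, 2 by voom and with the block, and 0 with any marker level. In D15L150 (0 called) it was 2 with a pseudocount of 0.1, 3 with quantile scaling, 4 with TPM and 5 with the muscle level. With single libraries left out, the count ranged from 0 to 7 in the mean comparison, 0 to 2 in D15L150, 0 to 4 in D15L200, 0 to 3 in D100L150 and 0 to 3 in D150L150. In D15L100, the 6 comparisons between spacer groups and both F tests it was 0 under every setting tried. The cause of these shifts was not tested. Counts over all genes are not given beside these, so the shifts cannot be read as particular to the barrier genes. The mean difference turned to -0.47 for Aloxe3, -1.85 for Elovl4, -0.31 for Cyp4f39, -0.15 for Sptlc3 and 0.36 for Ugcg with the suprabasal level, to -0.22 for Elovl4 and 0.19 for Ugcg with the basal level, and to 0.21 for Ugcg without Control 1, with Ugcg at -0.33 to 0.21 over single libraries left out. Abca12, Cers3 and Sdr9c7 were higher in all 28 settings and called in 25 of them. The Alox12b to Aloxe3 difference ranged from 1.29 to 1.75. Libraries of the same replicate number did not deviate together (median r 0.02 over 45 pairs, lowest -0.66), so the block pairs samples by number only. Depth limits the lowest values, such as 25 fragments for Sptlc3 in Control 1.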

Other observations

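Some neighbours of these genes varied over a far wider range than the groups differed. Alox12e, a lipoxygenase of epidermis, was at 0.013 to 75.1 FPKM in spacer libraries, against 0.079 to 19.2 FPKM in Control, and its difference was 1.18 ± 1.11 (adjusted p = 0.553, limma). Elovl3, an elongase of sebaceous glands, ranged from a listed 0 in 1 D100L150 library to 180 FPKM in spacer libraries, against 0.048 to 52.3 FPKM in Control. Fa2h, the fatty acid 2-hydroxylase, was at 0.075 to 203 FPKM in spacer libraries, and 1 Control library was listed at 0 while another had 108 FPKM.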
